A study of Homo sapiens with 6 samples.

Results

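The 10 genes described here encode the switch that decides whether a cell leaves G1 for S phase: the D-type cyclins CCND1, CCND2 and CCND3, their kinases CDK4 and CDK6, the E-type cyclins CCNE1 and CCNE2, the retinoblastoma protein RB1, and the transcription factors E2F1 and E2F2. They were taken by name from 2 tables of 60448 genes each, in which every one of the 10 occurs once. Newly made RNA had been measured by 4sU-seq, in which cells take up a uridine analogue so that RNA made during the labelling can be collected and sequenced. The cells were RPE1, an immortalised human line from the retinal pigment epithelium. The 6 libraries form 3 groups of 2: wild type cells without doxycycline and untreated, wild type cells without doxycycline treated with H2O2, and NuMA knockdown cells, given doxycycline and treated with H2O2. Doxycycline and the knockdown therefore form 1 factor, and an untreated knockdown was not analysed here. The labels give no dose, no times, no statement on clones and none on separate cultures. The spread behind every p-value may therefore be technical, and the sources used here do not say how it was estimated.

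In G1, mitogens raise the D-type cyclins, which bind and activate CDK4 or CDK6. These kinases phosphorylate RB1, which otherwise holds E2F factors in repressed complexes on their target promoters. Freed E2F1 and E2F2 switch on genes of DNA synthesis and the E-type cyclins, which with CDK2 phosphorylate RB1 further. CDK inhibitors act against these kinases, the INK4 family against CDK4 and CDK6 and the CIP/KIP family also against CDK2. In bulk RNA such as this, a smaller share of cells in a cell cycle phase and less of the RNA per cell cannot be told apart.

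The tables hold 1 value per gene and group and none per library, so no group has a replicate spread of its own. Mean counts per library were recovered from the deposited values and summed to 14760861.5 for untreated cells, 18279006 for H2O2-treated wild type cells and 16788394.5 for the knockdown. In the authors' deposited table no fold change is corrected for depth, and the median over genes with 50 or more mean counts was 0.29 for H2O2 and -0.29 for the knockdown. The log2 ratio of total counts was 0.31 for H2O2 and -0.12 for the knockdown, so in the knockdown the median shift was larger than the total counts give. Each log2 change below is given against the median gene, beside the standard error (SE) implied by the p-value of the authors. Such centring also removes any change shared by most genes, and what lies behind the shift was not tested. The words rose and fell are used of a gene only if the Benjamini-Hochberg adjusted p was under 0.05 both in the authors' deposited table and again, in a normal test over all tested genes, after centring. By that rule 16.6% of 18522 tested genes rose and 9.6% fell after H2O2 (63.3% of the called genes were higher, or 73.6% without centring), and 6.81% of 18266 rose and 14.4% fell in the knockdown (32.1% higher, or 19.6% without centring). NUMA1, the targeted gene, gave 1168 mean counts in untreated cells, 1571 in wild type cells after H2O2 and 933.5 in the knockdown, and fell in the knockdown by 0.46 ± 0.12 (adjusted p = 0.00114 after centring). Of 8 markers of differentiated retinal pigment epithelium, MITF and OTX2 gave most of the summed 805.5 to 1081.5 mean counts per group. RPE65, TYR, RLBP1 and TTR stood at 6 mean counts or fewer in each group. BEST1 gave 4.5 mean counts in untreated cells, 63 in wild type cells after H2O2 and 33.5 in the knockdown, and PMEL 14, 23 and 19. Haematopoietic markers summed to between 20.5 and 48 mean counts, and neuronal markers to 516 in untreated cells, 633 after H2O2 and 355.5 in the knockdown. Fibroblast markers summed to 5127.5 mean counts in untreated cells, 10855.5 in wild type cells after H2O2 and 8798.5 in the knockdown. These genes did not move as one. In the same order of groups, PDGFRB gave 407.5, 3987 and 2405 mean counts and THY1 3884, 5172.5 and 4865.5. COL3A1 gave 20, 6 and 0.5, and DCN 31, 19.5 and 12.5. The part of the neuronal and fibroblast markers in the results was not tested.

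Across the 10 genes, CDK6 and RB1 rose and E2F2 fell after H2O2. In the knockdown, which also had doxycycline, CDK6 rose and CDK4, CCNE2, E2F1 and E2F2 fell. Thus 2 of the 9 tested members rose and 1 fell after H2O2, against 16.6% and 9.6% of all tested genes, and 1 of 9 rose and 4 fell in the knockdown, against 6.81% and 14.4%. The members' median log2 change was 0.32 after H2O2 and -0.28 in the knockdown, where the median over all tested genes was 0.05 and 0.02. CCND1 and CCND3, the detected D cyclin genes, did not pass the test in either comparison. The authors' deposited table alone, without centring, calls 4 members higher and 1 lower after H2O2, where it calls 26.7% and 9.6% of all tested genes. In the knockdown it calls 1 higher and 8 lower, where it calls 6.81% and 28.0%. The rule needs the deposited change and the centred change to point the same way, so a fall after H2O2 and a rise in the knockdown had to be larger to be called than the opposite.

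**Figure D1:**
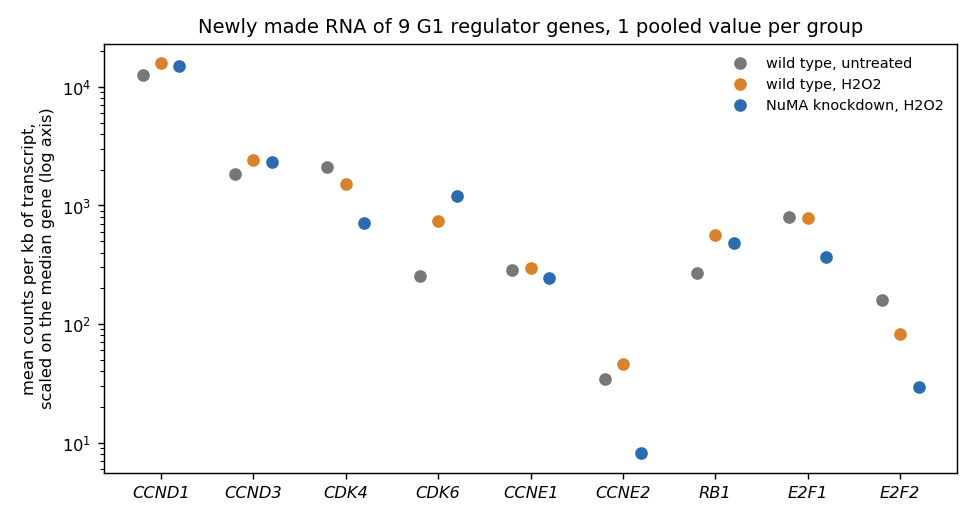
Mean counts per kb of transcript in each of the 3 groups (log axis), scaled on the median gene so that the groups can be compared; each point is the authors' pooled value of 2 libraries, so there are no error bars, and CCND2, at 1 mean count or fewer, is left out. CDK4 steps down and CDK6 steps up from untreated wild type through H2O2-treated wild type to the knockdown, and CCND1 stands highest of the 9 in every group.

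The D-type cyclins were dominated by CCND1, the cyclin most often linked to mitogen signalling through the ERK pathway. CCND1, on chromosome 11 from 69641087 to 69654474 (hg38, plus strand), gave 12528 mean counts in untreated cells, 19067.5 in wild type cells after H2O2 and 14953.5 in the knockdown. Its log2 change was 0.32 ± 0.20 after H2O2 (adjusted p = 0.219) and -0.06 ± 0.08 in the knockdown (adjusted p = 0.653). Neither passed the test, although the authors' deposited table, without centring, calls CCND1 higher after H2O2 (adjusted p = 0.00753) and lower in the knockdown (adjusted p = 6.56e-05). Scaled by the total counts, the knockdown change of CCND1 was -0.23 with an adjusted p of 0.0163. Against genes of like span, its change after H2O2 was 0.49 with an adjusted p of 0.0404.

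CCND3, on chromosome 6 from 41934933 to 42050357 (minus strand), encodes the D cyclin that is widely used in lymphoid cells and in differentiating muscle. It gave 1628 mean counts in untreated cells, 2592.5 in wild type cells after H2O2 and 2055.5 in the knockdown. The log2 change was 0.38 ± 0.20 after H2O2 (adjusted p = 0.139) and -0.04 ± 0.09 in the knockdown (adjusted p = 0.797), or 0.15 there against genes of like span. The log2 changes of the D cyclins differed by -0.06 ± 0.28 (CCND1 minus CCND3) after H2O2, with a 95% interval from -0.61 to 0.48, and by -0.02 ± 0.12 in the knockdown, with an interval from -0.26 to 0.23. Per kb of transcript, CCND1 stood 6.82-fold above CCND3 in untreated cells, 6.52-fold in wild type cells after H2O2 and 6.45-fold in the knockdown.

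CCND2, on chromosome 12 from 4273772 to 4305350 (plus strand), was not detectable at this depth. It gave 1 mean count in untreated cells, 0 in wild type cells after H2O2 and 1 in the knockdown, below the 3 counts that a count of 0 allows. It had no adjusted p in either deposited table and takes part in no comparison.

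The kinases of the D cyclins parted. CDK6, on chromosome 7 from 92604921 to 92836594 (minus strand), gave 609.5 mean counts in untreated cells, 2175 in wild type cells after H2O2 and 2922 in the knockdown. It rose after H2O2 by 1.54 ± 0.21 on the log2 scale, a 2.91-fold change (adjusted p = 5.47e-12), and again in the knockdown by 0.72 ± 0.09, a 1.64-fold change (adjusted p = 3.67e-14). Of the genes with at least 50 mean counts, 3.34% stood higher than CDK6 after H2O2 and 8.54% when the knockdown was compared, whether or not they passed the test. The knockdown group therefore stood highest and untreated wild type lowest for CDK6.

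CDK4, on chromosome 12 from 57747727 to 57756013 (minus strand), went the other way, with 1491.5 mean counts in untreated cells, 1322.5 in wild type cells after H2O2 and 505.5 in the knockdown. After H2O2 its log2 change was -0.46 ± 0.21, which did not pass the test (adjusted p = 0.0706), nor did it in the authors' deposited table (adjusted p = 0.550). In the knockdown it fell by 1.09 ± 0.14, a 2.14-fold change (adjusted p = 2.06e-14), and 3.75% of the genes with at least 50 mean counts stood lower. The log2 changes of the kinases, CDK6 minus CDK4, differed by 2.01 ± 0.29 after H2O2 (95% interval 1.43 to 2.58). In the knockdown they differed by 1.81 ± 0.16 (95% interval 1.49 to 2.13). Neither difference needs centring, but the trend with gene span described below remains in both. Per kb of transcript, the level of CDK6 relative to CDK4 was 0.119 in untreated cells, 0.480 in wild type cells after H2O2 and 1.69 in the knockdown. Per kb, the order of the pair therefore turned over only in the knockdown. That order rests on the transcript lengths used, 864 bases for CDK4 and 2960 for CDK6. In mean counts CDK6 already stood above CDK4 in wild type cells after H2O2, at 2175 against 1322.5.

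CDK4 shares bases with genes on the plus strand, and the strand setting of the counting is not given in the sources used here. TSPAN31, which overlaps CDK4 by 2485 bases, had mean counts of 104.5, 273.5 and 246.5 in the same order of groups and rose after H2O2 by 1.09. MARCH9, which overlaps it by 916 bases, had 715, 1068 and 1174 mean counts and was called in neither comparison. In the knockdown their log2 changes were 0.14 and 0.43, where CDK4 fell. The only overlapping genes of CDK6, RNU6-10P and AC002454.1, had at most 10 mean counts in any group.

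The promoters of CDK4 and CDK6 are printed because the pair split in both comparisons. The sequences are the 250 bases before the RefSeq start (GRCh38.p14), read 5′ to 3′ on the minus strand. The CDK4 stretch lies inside the gene bounds given above, which reach 57756013, so the RefSeq start is not the start of those bounds. The span and overlaps of CDK4 follow the bounds and not the RefSeq start. The CDK6 stretch also lies partly inside the bounds of its gene, which reach 92836594. Capitals mark the GC box GGGCGG, bound by SP1, and the E-box CACGTG, bound by MYC with MAX, each searched on both strands, with no overlap between the motifs.
CDK4 promoter, chr12:57752311-57752560: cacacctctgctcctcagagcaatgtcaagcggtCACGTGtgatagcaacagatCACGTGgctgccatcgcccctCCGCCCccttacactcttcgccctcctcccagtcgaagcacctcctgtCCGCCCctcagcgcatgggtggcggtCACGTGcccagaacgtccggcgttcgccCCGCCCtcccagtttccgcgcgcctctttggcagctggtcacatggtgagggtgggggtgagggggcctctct
CDK6 promoter, chr7:92836574-92836823: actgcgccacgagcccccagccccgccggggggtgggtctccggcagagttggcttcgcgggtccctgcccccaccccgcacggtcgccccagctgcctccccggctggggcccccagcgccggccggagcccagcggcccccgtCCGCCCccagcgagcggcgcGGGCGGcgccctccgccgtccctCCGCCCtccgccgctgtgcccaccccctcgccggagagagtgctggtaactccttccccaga
CDK4 held 3 E-boxes, with first bases at -216, -196 and -101 from the start, and 3 GC boxes. CDK6 held 0 E-boxes and 3 GC boxes. Among all 35116 promoters of the table, 6.34% held an E-box and 42.6% a GC box in the same window. These matches are descriptions of the letters and not of binding.

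The E-type cyclins carry the signal from E2F to CDK2. CCNE1, on chromosome 19 from 29811898 to 29824308 (plus strand), gave 299 mean counts in untreated cells, 380.5 in wild type cells after H2O2 and 255.5 in the knockdown. Its log2 change was 0.06 ± 0.24 after H2O2 (adjusted p = 0.895), a value of -0.0096 with the median of genes with at least 500 mean counts, and -0.28 ± 0.20 in the knockdown (adjusted p = 0.333). Neither passed the test, although the authors' deposited table, without centring, calls CCNE1 lower in the knockdown (adjusted p = 0.0161).

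CCNE2, on chromosome 8 from 94879770 to 94896678 (minus strand), was the lowest of the tested members, with 38 mean counts in untreated cells, 62 in wild type cells after H2O2 and 9 in the knockdown. H2O2 left it at a log2 change of 0.40 ± 0.42 (adjusted p = 0.511). In the knockdown CCNE2 fell by 2.36 ± 0.55, a 5.15-fold change (adjusted p = 0.000136). The change of CCNE1 minus that of CCNE2 was 2.08 ± 0.59 in the knockdown (95% interval 0.93 to 3.23) and -0.35 ± 0.49 after H2O2 (95% interval -1.30 to 0.61). INTS8, on the other strand and overlapping CCNE2 by 1977 bases, had mean counts of 136, 290 and 125, rose after H2O2 by 0.80 and fell in the knockdown by 0.92, and its part in the values of CCNE2 was not tested. NDUFAF6, also on the other strand and overlapping CCNE2 by 912 bases, had 225.5, 223.5 and 162 mean counts and was called in neither comparison.

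RB1, the brake that the kinases release, lies on chromosome 13 from 48303726 to 48599436 (plus strand). It gave 339 mean counts in untreated cells, 860.5 in wild type cells after H2O2 and 601 in the knockdown. RB1 rose after H2O2 by 1.05 ± 0.24, a 2.07-fold change (adjusted p = 9.50e-05). In the knockdown its log2 change was -0.23 ± 0.12, which did not pass the test (adjusted p = 0.169), and -0.39 with an adjusted p of 0.00614 when scaled by the total counts. Both H2O2-treated groups stood above untreated wild type. Of the genes that overlap RB1, RCBTB2 had 88 to 115.5 mean counts per group and the others at most 13.5.

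E2F1 is the activator E2F that both drives S phase genes and, when in excess, apoptosis. E2F1, on chromosome 20 from 33675683 to 33686404 (minus strand), gave 1620.5 mean counts in untreated cells, 1957.5 in wild type cells after H2O2 and 753 in the knockdown. After H2O2 its log2 change was -0.02 ± 0.20 (adjusted p = 0.959), with a sign that depended on the scaling (0.27 without centring). In the knockdown E2F1 fell by 1.09 ± 0.11, a 2.12-fold change (adjusted p = 8.58e-23), and 3.94% of the genes with at least 50 mean counts stood lower.

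E2F2, on chromosome 1 from 23506430 to 23531220 (minus strand), encodes a second activator E2F. It gave 371.5 mean counts in untreated cells, 234.5 in wild type cells after H2O2 and 69 in the knockdown, each group lower than the one before. It fell after H2O2 by 0.95 ± 0.24, a 1.94-fold change (adjusted p = 0.000439), and in the knockdown by 1.46 ± 0.25, a 2.75-fold change (adjusted p = 1.35e-07). The change of E2F1 minus that of E2F2 was 0.93 ± 0.31 after H2O2 (95% interval 0.32 to 1.55) and 0.37 ± 0.28 in the knockdown (95% interval -0.17 to 0.91). E2F1 and E2F2 thus differed after H2O2 by more than the error, while in the knockdown the interval of their difference includes 0.

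E2F genes are known to be controlled by E2F factors themselves. Matches to E2F-like letters are shown for the E2F genes that fell in the knockdown. Capitals mark TTTNNCGC, with N for any base, on either strand of the 250 bases before the RefSeq start (GRCh38.p14, minus strand, 5′ to 3′). These letters are looser than the E2F consensus, which has C or G at each N, so not every match fits that consensus. The E2F1 stretch from -45 to -1 lies partly inside the gene bounds given above, which reach 33686404.
E2F2 promoter, chr1:23531234-23531483: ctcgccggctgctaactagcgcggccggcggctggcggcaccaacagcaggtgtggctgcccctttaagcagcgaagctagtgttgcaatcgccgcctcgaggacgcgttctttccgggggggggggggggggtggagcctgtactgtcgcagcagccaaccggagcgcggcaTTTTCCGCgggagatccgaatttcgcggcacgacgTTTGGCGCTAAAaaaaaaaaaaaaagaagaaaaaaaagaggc
E2F1 from -135 to -96, chr20:33686481-33686520: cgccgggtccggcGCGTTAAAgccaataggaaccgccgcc
E2F1 from -45 to -1, chr20:33686386-33686430: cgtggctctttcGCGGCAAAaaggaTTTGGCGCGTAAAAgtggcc
E2F1 held 4 matches, at -122, -33, -20 and -14, of which the last overlap each other, and E2F2 held 3, at -77, -42 and -38, the last again overlapping. CCND3, CDK4, CDK6, CCNE1 and RB1, the other members in the RefSeq table, held 0, which says only that these letters are not in this window. In all, 5.92% of the 35116 promoters held a match in the same window. Of the other motifs searched, CCAAT was found in E2F1 alone (32.0% of promoters), TGANTCA, bound by AP-1, in RB1 alone (6.57%), and TTTGAA, the CHR of cell cycle genes, in 0 of the 7 members (13.3%).

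**Figure D2:**
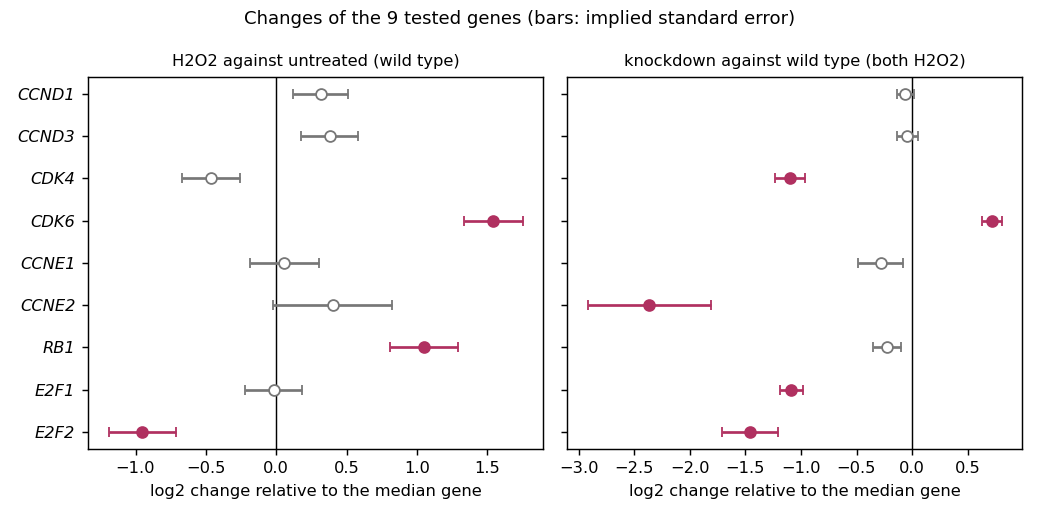
Log2 change relative to the median gene for the 9 tested members, with bars for the standard error implied by the authors' p-value; filled points passed the test in the deposited table and after centring, open points did not. After H2O2 CDK6 and RB1 lie right of 0 and E2F2 left of it, and in the knockdown CDK6 alone lies right of 0 among the filled points while CDK4, CCNE2, E2F1 and E2F2 lie left.

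Both comparisons share the H2O2-treated wild type libraries, so their values are set side by side without a test of likeness. Added together, they give the step from untreated wild type to the H2O2-treated knockdown, in which the shared group drops out and for which there is no test. That step was 2.26 on the log2 scale for CDK6, a 4.79-fold higher level, and 0.82 for RB1. It was -1.56 for CDK4, -1.96 for CCNE2, -1.10 for E2F1 and -2.41 for E2F2, a 5.32-fold lower level of E2F2. It was 0.26 for CCND1, 0.34 for CCND3 and -0.23 for CCNE1.

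Within each group the levels per kb of transcript can be ordered, without an error of their own. CCND1 came first in each of the 3 groups, with 10362, 15771 and 12368 mean counts per kb, and E2F2, CCNE2 and CCND2 came last. In untreated wild type CDK4 followed with 1726, CCND3 with 1519 and E2F1 with 647.4 mean counts per kb, and CCNE1, RB1 and CDK6 lay together at 233.2, 221.6 and 205.9. In the knockdown CDK6 had moved to the third place with 987.2 mean counts per kb, ahead of CDK4 with 585.1, RB1 with 392.8 and E2F1 with 300.8. Per kb, E2F1 stood 5.0-fold above E2F2 in untreated cells, 9.57-fold in wild type cells after H2O2 and 12.5-fold in the knockdown.

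The members differ in size, from 8.29 kb for CDK4 to 296 kb for RB1, and the change after H2O2 moved with gene span over all genes. The running median of genes nearest in span was -0.33 at the span of CDK4 and 0.12 at the spans of CDK6 and RB1 after H2O2. In the knockdown it was 0.18 and -0.12 at the spans of CDK4 and CDK6. Against genes of like span CDK6 stood at 1.42 ± 0.21 and RB1 at 0.93 ± 0.24 after H2O2, and both passed the test, while CDK4 stood at -0.13 ± 0.21 (adjusted p = 0.678). In the knockdown CDK6 stood at 0.84 ± 0.09 and CDK4 at -1.27 ± 0.14 against genes of like span, both larger in size than against the median gene.

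**Figure D3:**
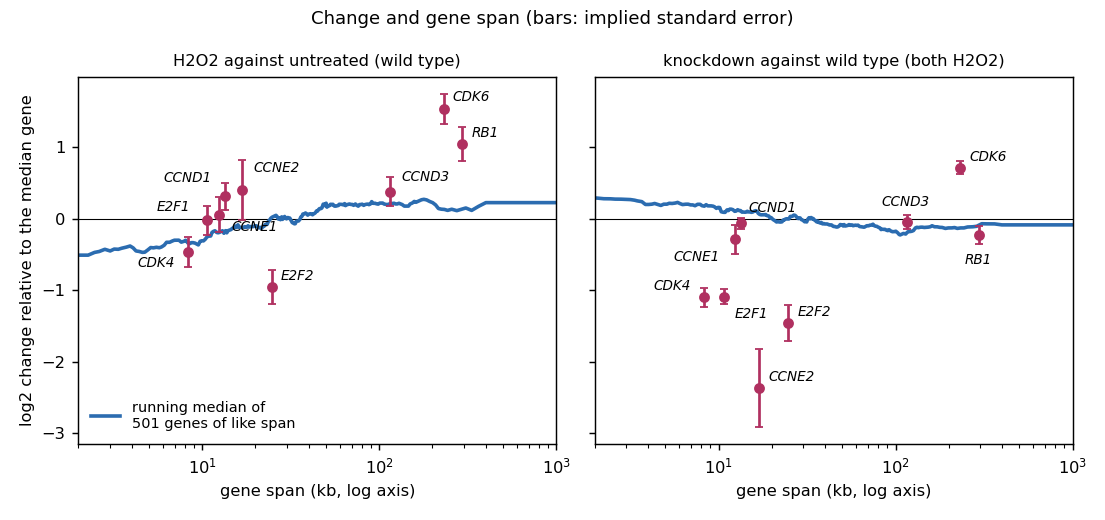
Log2 change relative to the median gene against gene span in kb (log axis) for the 9 tested members, with the implied standard error as bars; the line is the running median of the genes nearest in span with at least 50 mean counts. CDK6, at 232 kb, lies above the line in both panels, and CDK4, E2F1, E2F2 and CCNE2 lie below it in the knockdown panel.

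The other genes of the pathway were looked at in 6 lists, 63 genes in all, each of them tested in both comparisons. After H2O2, 5 of the 63 rose and 11 fell, where 16.6% and 9.6% of all tested genes did, with a median log2 change of -0.21. In the knockdown 3 rose, CDKN1A, TFDP2 and CDC34, and 37 fell, where 6.81% and 14.4% of all tested genes did, with a median of -0.60. Over all tested genes these medians were 0.05 and 0.02. By the centred adjusted p alone, 5 of the 63 stood higher and 20 lower after H2O2, and 5 and 37 in the knockdown. The share of all tested genes under that looser rule was not computed.

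The CDK inhibitors moved in both directions. After H2O2, CDKN1A, CDKN1C and CDKN2B rose and CDKN1B fell, of 7 genes with a median of 0.48. The largest rise was that of CDKN1C, from 13.5 to 172 mean counts, by 3.29 ± 0.41 (adjusted p = 4.52e-14). In the knockdown CDKN1C gave 96.5 mean counts, a log2 change of -0.54 ± 0.26 that did not pass after centring (adjusted p = 0.104). CDKN2B, which encodes the INK4 inhibitor p15 of CDK4 and CDK6, went from 270.5 to 1431.5 mean counts, a rise of 2.11 ± 0.21 (adjusted p = 4.65e-21), and fell in the knockdown to 934, by 0.32 ± 0.11 (adjusted p = 0.0171). CDKN1B, which encodes the inhibitor p27, fell after H2O2 from 1918.5 to 1028 mean counts, by 1.19 ± 0.20. In the knockdown CDKN1A, which encodes p21, the p53-induced inhibitor of cyclin-CDK pairs, went from 32107 to 58083.5 mean counts, after 15118.5 in untreated cells, and rose by 1.15 ± 0.07 (adjusted p = 1.81e-50), beside its rise after H2O2 by 0.80 ± 0.20. CDKN2C, the gene of the INK4 inhibitor p18, fell in the knockdown by 0.51 ± 0.13, and the list median there was 0.16.

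Among 10 genes of the other pocket proteins, E2F and DP factors, RBL2 rose and E2F6 fell after H2O2. RBL2, which encodes the pocket protein p130 of resting cells, went from 62.5 to 212.5 mean counts, a rise of 1.46 ± 0.31 (adjusted p = 2.19e-05). In the knockdown RBL1, E2F3, E2F5, E2F8 and TFDP1 fell and TFDP2 rose. E2F8, a repressor E2F of S and G2 phase, fell from 62.5 to 8 mean counts, by 2.53 ± 0.57 (adjusted p = 6.83e-05). The dimerisation partners of E2F parted, with TFDP1 falling by 0.72 ± 0.10 and TFDP2 rising by 0.94 ± 0.15. The list median was -0.31 after H2O2 and -0.43 in the knockdown.

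Of the 6 genes of CDK2, cyclin A, CDC25A and the CDK-activating kinase, CCNA2 and CDC25A fell after H2O2 and CDK2, CCNA2 and CDC25A fell in the knockdown, with medians of -0.61 and -0.36. CCNA2, the cyclin of S phase and G2, had mean counts of 829, 527 and 131 in the order untreated, H2O2-treated and knockdown, and fell by 0.94 ± 0.20 after H2O2 and fell by 1.71 ± 0.18 in the knockdown. CDC25A, the phosphatase that activates CDK2, had 661, 318.5 and 171 mean counts, and fell by 1.34 ± 0.22 and by 0.60 ± 0.19. For both genes each group was lower than the one before.

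Among 10 genes of ubiquitin ligases that act on G1 cyclins and CDK inhibitors, FZR1 fell after H2O2. In the knockdown SKP2, CUL3, CKS1B and KLHL20 fell and CDC34 rose. CUL3, the scaffold of a family of ligases, fell by 1.15 ± 0.16, from 623.5 to 228.5 mean counts, and CDC34, a ubiquitin-conjugating enzyme, rose by 0.94 ± 0.10, from 2430 to 3803.5. The medians of that list were 0.00 and -0.07. Of the 6 genes of the MuvB core and B-MYB, LIN37 fell by 2.59 ± 0.43 after H2O2, from 90 to 17.5 mean counts. LIN9 and MYBL2 fell in the knockdown, where LIN9 fell by 1.65 ± 0.32, from 151 to 38.5 mean counts. The medians were -0.29 and -0.26.

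Among 24 target genes of E2F in DNA synthesis, 21 fell in the knockdown and 0 rose, with a median of -0.95, where 14.4% of all tested genes fell. The authors' deposited table calls all 24 lower, and 28.0% of all tested genes. TYMS, TK1 and POLA2 did not pass after centring, at -0.31, -0.26 and -0.33. After H2O2, 1 gene of that list rose, MCM6, and 5 fell, CDT1, TK1, POLA2, FEN1 and GMNN, where 16.6% and 9.6% of all tested genes did, with a median of -0.36. MCM6, a subunit of the replicative helicase, had mean counts of 636.5, 1222 and 299.5, and rose by 0.65 ± 0.20 and then fell by 1.73 ± 0.13. CDT1, which licenses origins, had 2469.5, 938 and 403 mean counts, and fell by 1.69 ± 0.22 and then fell by 0.93 ± 0.14. GMNN, the gene of its inhibitor geminin, had 1171, 499 and 213.5 mean counts, and fell by 1.52 ± 0.22 and then fell by 0.93 ± 0.17. FEN1, a flap endonuclease of lagging strand synthesis, fell by 0.82 ± 0.20 and 1.19 ± 0.12.

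**Figure D4:**
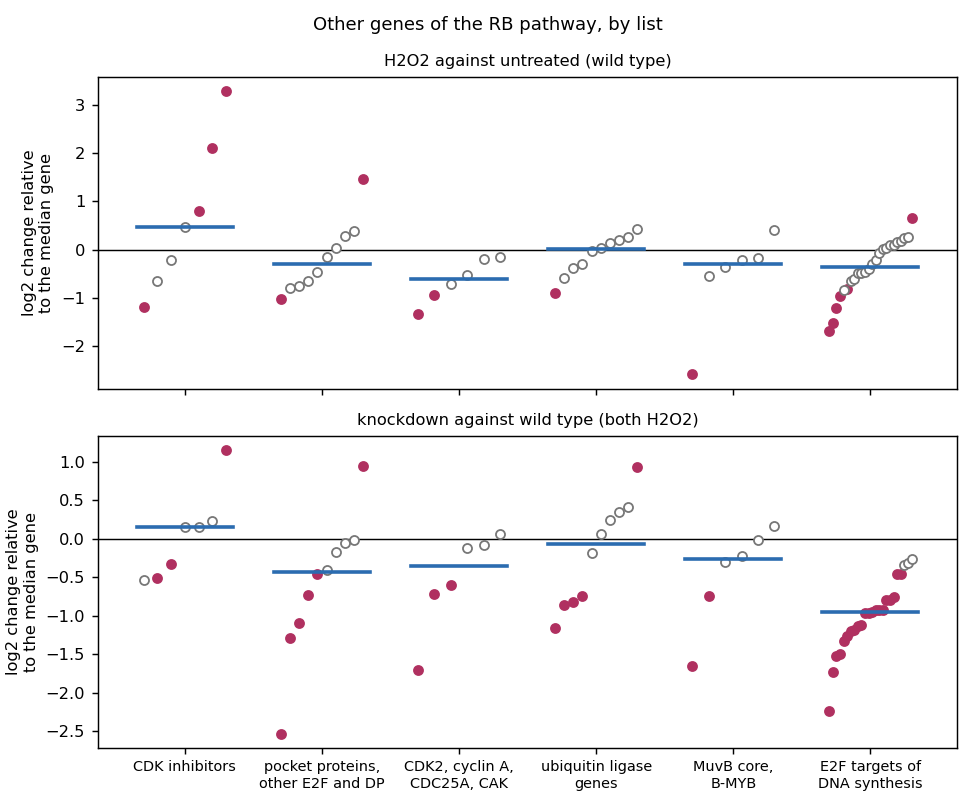
Log2 change relative to the median gene for the 63 genes of the 6 lists, in the H2O2 comparison (top) and the knockdown comparison (bottom); each point is a gene, filled where it passed the test in the deposited table and after centring, and the blue bar is the list median. The list of E2F targets lies wholly below 0 in the knockdown panel, with 21 of 24 points filled, and the CDK inhibitors lie on both sides of 0 in both panels.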

How the data were processed

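Groups follow the sample labels. Per the submitters' processing notes, the tools include STAR 2.5, DESeq and DESeq2, and the genome build is hg38; the notes assign them no role. The counting tool, strand setting and annotation release are not given in the sources used here. The authors deposited, per gene, a signal value for each group, pooled over its 2 libraries, with no unit named. The log2 fold change the authors deposited equals the log2 ratio of those values, and the authors deposited a p-value for every gene and an adjusted p for the genes called tested here.

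The signal values were read back to counts (Python 3.11.15, pandas 2.3.3, scipy 1.17.1): a value is the mean count of 2 libraries plus an added count of 1, over a transcript length, times a factor common to the table. A whole length giving whole reads over the 2 libraries (tolerance 1e-06, relative to the reads) was found for all 60448 genes. Lengths were searched until one fitted, and the tolerance is loose for the most abundant genes, so finding one does not test this reading. For 86.0% it equalled the mean transcript length of GENCODE release 29. For the others, RB1 (1530 bases, annotated 1636) and CCNE2 (1361, annotated 1315) among the members, the whole multiple nearest to the annotation was taken, so a common factor may remain in their counts. The value of H2O2-treated wild type cells differed between tables by a constant ratio of 1.07, which was removed.

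The tests planned for values per library could not be run. Instead the deposited fold change was centred on the median gene (at least 50 mean counts) and tested with the implied SE, the size of the fold change over the normal quantile of its p, with Benjamini-Hochberg adjustment. Where that quotient could not be had (224 and 291 genes), the median of 101 neighbours in mean count was used. Among genes with over 500 mean counts the median SE was 0.21 after H2O2 and 0.11 in the knockdown. Intervals cover the implied SE only. For a difference between genes, their SEs were combined as if independent, although both come from the same libraries.

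The members, lists and tests were chosen with earlier results of these data known. Named in full are all members. From each list, those called in both comparisons (up to 4, by summed size of change) are named, or, with fewer than 2 such genes, the 2 with the largest change, and every gene behind a count of 5 or fewer. The promoter stretches of CDK4 and E2F1 were chosen after their values were seen. Promoters are RefSeq's (GRCh38.p14), found for 7 of the 10 members.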

Additional observations from a re-analysis of the deposited data

How the results depend on the processing

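Of 144 recomputed changes of single members, 127 kept their direction and their call, which needs the deposited adjusted p under 0.05 as well, 12 became calls and 5 turned sign. Among the 127, CDK4 after H2O2 had a centred adjusted p of 0.0349 with the median of genes with at least 500 mean counts and 0.0424 with the median of all tested genes, but stayed uncalled by its deposited p of 0.550 (adjusted p from 0.0349 to 0.678 over the alternatives). The calls of CDK6, RB1 and E2F2 after H2O2 and of CDK6, CDK4, CCNE2, E2F1 and E2F2 in the knockdown held under the 8 alternatives run. Without centring, 4 members rose after H2O2 in place of 2, with CCND1 and CCND3 added, 13 of the 63 pathway genes rose in place of 5, and 8 members fell in the knockdown in place of 4. Over all genes, 4947 in place of 3067 then rose after H2O2, and 5118 in place of 2637 fell in the knockdown. Scaled by the total counts of genes with a settled length, 7 members and 4234 genes fell in the knockdown, with CCND1, CCND3 and RB1 added. After H2O2, E2F1 turned to 0.27 without centring, 0.028 with those totals and 0.23 against genes of like span, and CCNE1 to -0.0096 with the median of genes with at least 500 mean counts. CCND3 turned to 0.15 in the knockdown against genes of like span. The cause was not tested beyond the shift each setting applies. No paired analysis was possible because the deposited values are pooled over the libraries, and for the same reason no replicate could be left out and DESeq2 was not run. With pooled values and 9 to 69 mean counts in the knockdown, CCNE2 and E2F2 rest on few reads.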
